A study of Mus musculus with 2 samples.

Results

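Apolipoproteins are the protein part of lipoprotein particles, and 8 of their genes were examined in epididymal fat together with 2 genes that act on apolipoprotein B. The genes were Apob, Apoa1, Apoa2, Apoa4, Apoe, Apoc1, Apom and Apod, with Mttp and Apobec1. They make up 10 of the 22180 genes that the platform annotation names on the array, and each was read by 1 probe set. They were chosen by known function and with their differences between these arrays in view, so every level and difference of these 10 genes is a description, and nothing is tested with them.

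The study compared male A/J mice with male A/J-12SM mice, a consomic strain that carries the whole of chromosome 12 from SM/J on the A/J background. Both strains received a high-fat diet for 7 weeks from 6 weeks of age, and tissue was taken after a 4 h fast. RNA from 3 mice of a strain was pooled, 100 ng of it was labelled, and 1 array was hybridized per strain, 2 in all. Real-time RT-PCR that the study ran on tissue of individual mice is not analysed here, so every value below comes from these arrays alone. Because nothing was replicated, no difference given here has an error or a p-value, and a difference between pools cannot be told apart from a difference between individual mice or between hybridizations. Replacing the whole chromosome also means that an effect of Apob itself cannot be told apart from that of any other gene of chromosome 12.

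Very-low-density lipoprotein (VLDL) is built in the endoplasmic reticulum, where the microsomal triglyceride transfer protein encoded by Mttp loads lipid onto the large apolipoprotein B chain. Hepatocytes and enterocytes are the cells best known for this, and apolipoprotein B that is not lipidated is degraded. The smaller apolipoproteins move between particles in plasma, where they shape high-density lipoprotein, guide particles to receptors and control lipases. Apobec1 encodes the cytidine deaminase that edits Apob mRNA to give a shorter protein, and in mice the liver as well as the intestine edits it.

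Levels are log2 values from the RMA method, and differences were taken as A/J-12SM minus A/J. Where a pair of levels is given for a gene, A/J comes first. Over all probe sets the A/J array had a median of 4.400 and the A/J-12SM array one of 4.427, and a level near or under it cannot be separated from background. A gene was counted as higher or lower when it differed by more than 0.75, the log2 limit of the study's own selection. This corresponds to a ratio above 1.682 or below 0.595. By this count 7.14% of all genes were past the limit, 2.86% being higher and 4.28% lower in A/J-12SM. The signal of a probe depends on its sequence, so levels of different genes were not ranked against each other. The fat pad was recognizable on both arrays, since all 11 measured adipocyte markers had levels between 6.63 and 12.45.

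Of the 10 genes, 4 were higher in A/J-12SM and none was lower, beside the 2.86% and 4.28% of all genes. The 4 were Apob, Apoa1, Apoa2 and Apoc1, and the median difference of the 10 was 0.57 against 0.03 for all genes. Apom, Apoa4, Mttp, Apoe, Apod and Apobec1 lay within the limit. Since the genes were picked with these values known, the share is no evidence about apolipoproteins as a class. Nearest to the limit lay Apoc1 outside it, at 0.99, and Apobec1 inside it, at -0.7496. Of 21 hepatocyte markers, 17 were also higher in A/J-12SM. Of 12 germ cell and epididymis markers 6 were lower, all of them genes of male germ cells. Both lists are taken up after the apolipoprotein genes. In bulk tissue, fewer cells of a type and less RNA per cell cannot be told apart, and the part of such RNA in the differences of the apolipoprotein genes was not tested.

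**Figure D1:**
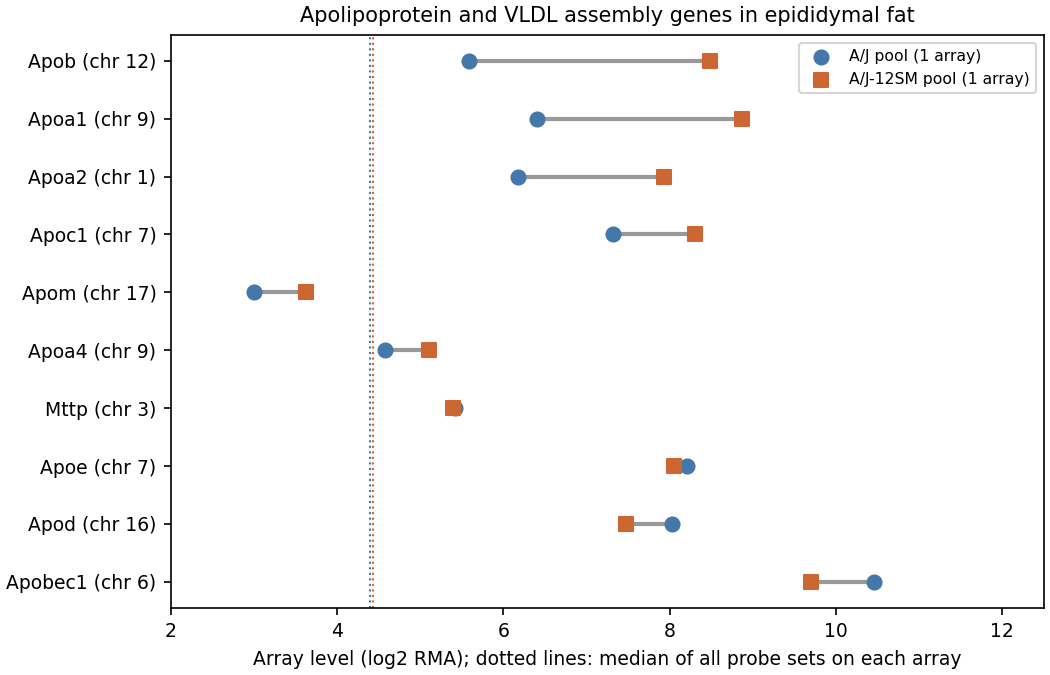
Level of each gene on the A/J array (circles) and the A/J-12SM array (squares) in log2 RMA units, 1 array of 3 pooled mice each, with dotted lines at the array medians and no error bars because there was no replicate. Apob, Apoa1, Apoa2 and Apoc1, past the limit of 0.75, lie to the right on the A/J-12SM array. Within the limit, Apom (0.63) and Apoa4 (0.52) also lie to the right, and Apobec1 (-0.7496) and Apod (-0.55) to the left.

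The start regions of the 3 genes with the highest differences are shown because Apob, on the exchanged chromosome, went the same way as Apoa1 and Apoa2 on chromosomes that both strains share. Each runs 5′ to 3′ on the coding strand from 250 bases before to 50 bases after an annotated start, taken from RefSeq on GRCm38.p6, which is C57BL/6J sequence and not that of A/J or SM/J. Apob is at chr12:7977427-7977726 and Apoa1 at chr9:46228380-46228679, both on the plus strand. Apoa2 has a start region at chr1:171221314-171221613 and another at chr1:171224804-171225103, also on the plus strand. Capitals mark exact matches on either strand to any of 5 short motifs. The first is the core promoter element spelled TATAAA. The second, a half-site for the liver factor HNF1, is spelled GTTAAT. The third, the core of sites for the nuclear receptor HNF4, is spelled CAAAGTCC. The fourth, the core of sites for FOXA proteins, is spelled TGTTTAC. The fifth, which many nuclear receptors use as a half-site, is spelled AGGTCA.
Apob: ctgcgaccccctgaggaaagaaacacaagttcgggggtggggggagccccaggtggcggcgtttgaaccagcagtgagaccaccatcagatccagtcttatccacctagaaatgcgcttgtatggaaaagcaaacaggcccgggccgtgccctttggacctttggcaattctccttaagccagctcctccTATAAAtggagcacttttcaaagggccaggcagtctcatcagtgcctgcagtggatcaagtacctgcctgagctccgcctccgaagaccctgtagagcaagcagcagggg
Apoa1: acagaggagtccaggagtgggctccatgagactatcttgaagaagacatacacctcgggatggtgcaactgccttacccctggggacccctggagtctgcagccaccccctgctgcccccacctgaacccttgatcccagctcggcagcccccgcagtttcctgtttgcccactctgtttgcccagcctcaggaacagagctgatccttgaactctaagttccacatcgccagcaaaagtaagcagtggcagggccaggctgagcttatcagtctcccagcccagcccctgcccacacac
Apoa2, upstream start: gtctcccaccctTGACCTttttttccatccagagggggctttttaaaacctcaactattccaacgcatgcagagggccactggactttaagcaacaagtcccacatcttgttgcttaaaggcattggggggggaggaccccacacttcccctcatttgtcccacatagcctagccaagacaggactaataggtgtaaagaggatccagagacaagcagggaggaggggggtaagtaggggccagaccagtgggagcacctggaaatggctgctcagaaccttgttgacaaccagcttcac
Apoa2, downstream start: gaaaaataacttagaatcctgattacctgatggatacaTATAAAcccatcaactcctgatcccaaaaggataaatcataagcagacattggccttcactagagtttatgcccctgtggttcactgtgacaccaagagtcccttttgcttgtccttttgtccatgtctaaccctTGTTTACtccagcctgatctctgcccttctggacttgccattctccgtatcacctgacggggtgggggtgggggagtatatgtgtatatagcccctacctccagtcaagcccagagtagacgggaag

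The Apob region held 1 match, a TATAAA that begins 60 bases before the annotated start used for this region. That start lies inside the Apob gene span given below and is not its first base. Such a match is present in 13.6% of 32851 start regions of this length. The upstream Apoa2 region held the nuclear receptor half-site on the opposite strand, found in 16.3% of regions, and the downstream one held TATAAA and the FOXA core, the latter found in 3.65%. The Apoa1 region had no match, and the HNF1 half-site (7.10% of regions) and HNF4 core (1.42%) were in none of the 4 printed sequences. Matches were not limited to the printed genes. A start region of Apoe (difference -0.15) held the HNF1 half-site and the FOXA core, both on the opposite strand. The Apobec1 region held the first motif on the opposite strand. In another start region of Apoe the first motif and its complement overlapped. None of these regions is printed. Of the 10 genes, 9 had a start region in the table used, and Apoc1 had none.

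Apob, the structural protein of VLDL and low-density lipoprotein, had the highest difference of the set. The gene lies on chromosome 12 at 7977629 to 8016839 (GRCm38.p6, also for the positions below). Its level was 5.58 in A/J and 8.48 in A/J-12SM, a 7.46-fold difference. The A/J level lay 1.18 above that array's median, whereas the A/J-12SM level lay 4.05 above. The difference ranked 1 among 748 genes of chromosome 12 and 5 among all genes, counted from the highest. Of 2616 genes with a mean level within 0.5 of that of Apob, 5 including Apob differed by as much in size.

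The main proteins of high-density lipoprotein followed. Apoa1, which activates the cholesterol-esterifying enzyme LCAT, lies on chromosome 9 at 46228630 to 46230469. Its level was 6.41 in A/J and 8.87 in A/J-12SM, a 5.53-fold difference at rank 15 of all genes. Apoa2, the second protein of this particle, lies on chromosome 1 at 171221564 to 171226379. It stood at 6.17 in A/J and 7.93 in A/J-12SM, higher by 3.39-fold. Both genes were well above the array median on both arrays, by at least 1.77.

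Of the neighbours Apoc1 and Apoe on chromosome 7, Apoc1 was past the limit and Apoe was not. Apoc1, a small exchangeable apolipoprotein made in liver and macrophages, lies at 19689480 to 19692659 and went from 7.32 in A/J to 8.31 in A/J-12SM, higher by 1.99-fold. Apoe, a ligand of the low-density lipoprotein receptor family that many cell types make, among them hepatocytes, macrophages and fat cells, lies 3.585 kb away at 19696244 to 19701310. It stood at 8.20 in A/J and 8.05 in A/J-12SM, a difference of -0.15. Apoc2, the cofactor of lipoprotein lipase in the same cluster, was at -0.32 with low levels of 5.24 and 4.92. Another probe set of the cluster names both Apoc4 and Apoc2 and was left out.

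In the cluster on chromosome 9, Apoa1 and Apoa5 were past the limit, and Apoa4 and Apoc3 were not. Over 43.3 kb the cluster holds Apoa1 (2.47), Apoc3 (0.41), Apoa4 (0.52) and Apoa5 (1.25). Apoa4, an apolipoprotein of intestine and, in mice, of liver, lies at 46240844 to 46243458 and had levels of 4.58 and 5.10. Apoc3, an inhibitor of lipoprotein lipase, had levels of 5.06 and 5.47. Apoa5, a plasma factor that favours triglyceride clearance, was past the limit at 3.90 against 5.15. Apoc3, Apoa4 and Apoa5 were near the median on both arrays, where the size of a difference is uncertain.

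Apom and Apod belong to the lipocalin family, small proteins that carry lipids in a pocket. Apom, which rides on high-density lipoprotein, lies on chromosome 17 at 35128997 to 35131801. Its levels of 3.002 and 3.63 were both below the array medians, so its difference of 0.63 cannot be read as a change in expression. Apod, made in many tissues and not in the liver alone, lies on chromosome 16 at 31296192 to 31314808. It had levels of 8.03 and 7.48 and thus a ratio of 0.681, within the limit.

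Mttp, the lipid transfer protein that apolipoprotein B needs, was nearly equal in both strains. It lies on chromosome 3 at 138089855 to 138143418 and stood at 5.42 in A/J and 5.40 in A/J-12SM. The difference was -0.02 at a level 1.02 above the median of the A/J array, the closest to 0 of the 10 genes. Apobec1, on chromosome 6 at 122577792 to 122603024, was far above the array medians, by 6.05 in A/J and 5.28 in A/J-12SM. Its level was 10.45 with A/J and 9.70 with A/J-12SM, a ratio of 0.595. Of 507 genes with a mean level within 0.5 of that of Apobec1, 16 including Apobec1 differed by as much. With each array centred on its median the difference was -0.78, which is past the limit.

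**Figure D2:**
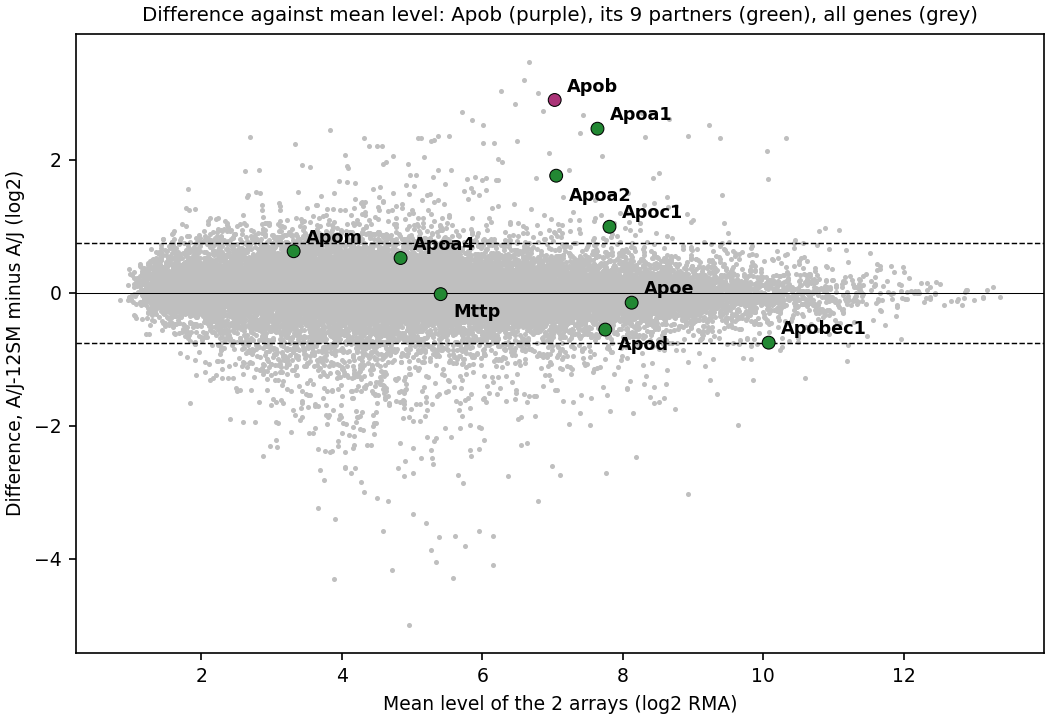
Difference between the arrays (vertical, log2) against the mean level of the 2 arrays (horizontal, log2 RMA) for all 22180 genes, with Apob and its 9 partners marked and dashed lines at 0.75 and -0.75. Apob, Apoa1 and Apoa2 stand above most genes of like level, Mttp and Apoe lie near 0, and Apobec1 is on the lower line at a high level.

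Apob was set against its 9 partners, which lie on 7 other chromosomes that both strains have from A/J. Of the partners 3 were higher and none lower, with a median of 0.52. Of the other 747 genes of chromosome 12, 25 were higher and 41 lower, with a median of 0.02. Over all genes, 2.86% were higher and 4.28% lower. The difference of Apob exceeded that of Apoa1 by 0.43 on the log2 scale and that of Apoa2 by 1.14. Against Apoc1 the excess was 1.91, and against Apom and Apoa4 it was 2.27 and 2.38. Against Mttp it was 2.92, against Apoe 3.05, against Apod 3.45 and against Apobec1 3.65. Thus 8 of 9 partners were exceeded by more than 0.75, and Apoa1 was not. With 1 array per strain, whether Apob and Apoa1 differ in their response was not tested.

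The genes around Apob on chromosome 12 were counted in the same way. Among the 10 measured genes on each side, over 4.08 Mb, none was above 0.75 and 2 were below -0.75, with a median of -0.01. Over all genes, 2.86% were above and 4.28% below. With so few neighbours, these counts are no evidence about the region. The nearest on the distal side was Ldah, a lipid droplet hydrolase that lies 191 kb away, with a difference of 0.19 (9.04 against 9.23). The nearest on the proximal side was 1700101O22Rik at 597 kb (-0.41), whose levels of 3.37 and 2.96 were below the medians. The 2 lower genes were Fkbp1b (-0.84), a binding protein of ryanodine receptors, and BC106175, which was at 5.43 with A/J and 3.89 with A/J-12SM. The highest neighbour, named after its values were seen, was Mfsd2b at 0.45, again at low levels of 3.14 and 3.59.

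**Figure D3:**
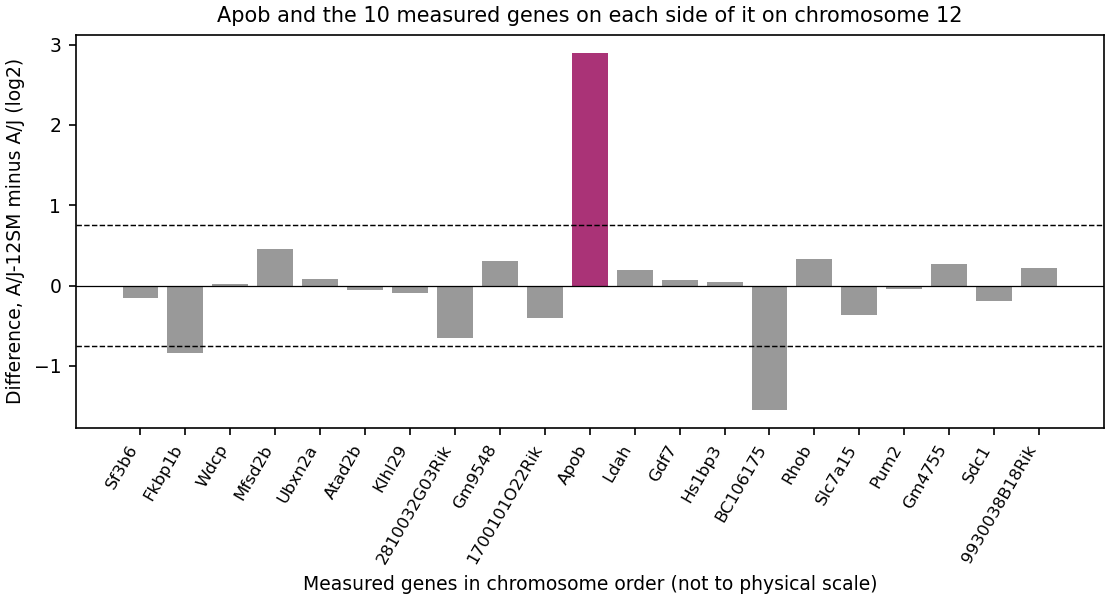
Difference between the arrays (log2, A/J-12SM minus A/J) for Apob and the 10 measured genes on each side, in chromosome order and not to physical scale, with dashed lines at 0.75 and -0.75. Apob is the single bar above 0.75, and BC106175 and Fkbp1b are below -0.75.

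Among 24 other genes, listed as apolipoproteins or for a like name, 8 were higher in A/J-12SM and none was lower. The shares over all genes were 2.86% and 4.28%, and the median of the list was 0.14. Apobr (0.07), Apold1 (-0.15) and Apool (0.04), listed for their names, were within the limit. Saa4, a serum amyloid A protein of high-density lipoprotein, had levels of 4.74 and 7.78, and Apoh, a plasma glycoprotein that binds phospholipid, had 4.75 and 7.27. Apoo, which despite its name is best known from the inner mitochondrial membrane, was at 4.98 and 6.03, and Apol6, of the apolipoprotein L family, was at 6.95 and 7.85. The other 4 were Apoa5 and, named after their values were seen, Apon (1.65), Apof (1.18) and Apol9b (0.85), all with levels under 6 on both arrays. Clu, an apolipoprotein that fat and many other tissues make, was at 10.11 and 9.43, and was also named after its values were seen.

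The general machinery of VLDL assembly and secretion was close to equal. Of 32 measured genes besides Mttp, 3 were higher and none lower, beside 2.86% and 4.28% of all genes, and the median difference was 0.01. P4hb, the protein disulfide isomerase that forms the other subunit of the transfer complex, was at 10.19 and 10.09, and Sar1b, a GTPase of the vesicles that carry these particles out of the endoplasmic reticulum, was at 9.81 and 9.73. Tm6sf2, a factor of VLDL lipidation, was at 5.10 and 5.57, and Pla2g12b, also needed for VLDL secretion in mice, was at 4.10 and 4.43. The 3 higher genes were all carboxylesterases. Ces1d, a triglyceride hydrolase of fat and liver, was at 7.29 and 8.23, and Ces3a was at 5.34 and 7.04. Ces3b, named after its values were seen, was at 2.22 and 4.46. These levels are under or near the array medians, so the size of its difference is uncertain.

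Genes of Apob mRNA editing other than Apobec1 gave few differences. Of 8 measured, 1 was higher, namely A1cf, the RNA-binding cofactor of the deaminase in liver, with levels of 3.76 and 4.58. Under loess scaling none was past the limit (0 of 8). Rbm47, another editing cofactor, was at 5.92 and 5.30, a difference of -0.62. Hnrnpab (10.52 and 10.45) and Syncrip (8.15 and 8.09), RNA-binding proteins of the editing complex, were nearly equal. The array reads amounts of RNA and not edited bases, so the share of edited Apob mRNA was not measured.

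Among genes of receptors that take up apolipoproteins, 5.56% were past the limit, beside 7.14% of all genes. This count is therefore no evidence about the class. Of 18 genes, none was higher and 1 was lower, namely Lrp2, the endocytic receptor megalin (5.39 and 4.54), which was named after its values were seen. Lrp8, an Apoe receptor, lay just inside the limit at -0.746, and was named for that. Under each of the 3 other scalings 2 genes of the list were lower. Lrp1, the main Apoe receptor of fat and liver besides the low-density lipoprotein receptor, was at 10.49 and 10.39, and Dab2, an adaptor of receptor uptake, was at 10.12 and 9.96. Of 13 genes of high-density lipoprotein and lipid transfer, 3 were higher and 1 was lower, beside 2.86% and 4.28% of all genes. Abca1, which exports cholesterol to Apoa1, was at 9.88 and 10.06, and Pltp, the phospholipid transfer protein, was at 11.97 and 11.49. The 4 past the limit, named after their values were seen, were Pon1 (3.70 and 5.75), the paraoxonase of this particle, Lcat (4.90 and 5.90), Abcg4 (4.84 and 5.74) and Lipg, endothelial lipase (4.37 and 3.33). None of these reached 6 on either array.

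Transcription factors that act on apolipoprotein genes in liver were all within the limit. None of 22 was past 0.75, beside 7.14% of all genes, and with so few genes this is no evidence about the class. A positive difference was found for 16 and a negative one for 6, and the median was 0.25. Cebpa, a factor of both fat cells and hepatocytes, was at 8.65 and 8.98, and Foxo1, which insulin restrains, was at 8.15 and 8.58. Hnf4a, the nuclear receptor that drives many apolipoprotein genes in liver, was near the median on both arrays, at 4.65 and 4.93; it was named for its role after its value was seen.

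**Figure D4:**
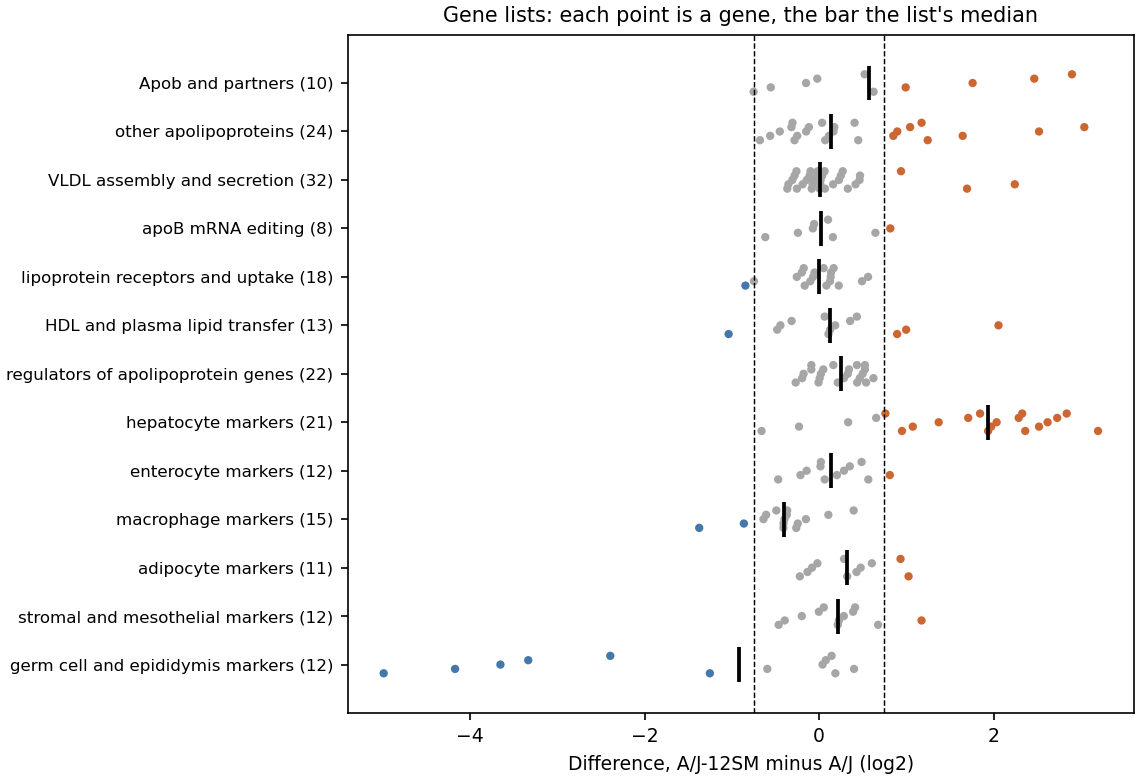
Difference between the arrays (log2, A/J-12SM minus A/J) for each gene of the set and of 12 gene lists, the number of measured genes in parentheses, with a black bar at the median and dashed lines at 0.75 and -0.75. Hepatocyte markers lie furthest to the right, with a median of 1.94, and VLDL assembly genes are centred on 0.01.

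Markers of hepatocytes moved with Apob, Apoa1 and Apoa2. Of 21 measured markers, 17 were higher in A/J-12SM and none was lower, beside 2.86% and 4.28% of all genes. Their median was 1.94, and their summed level was 11.28 in A/J against 12.79 in A/J-12SM. Single markers lay between 3.33 and 9.24 in A/J and between 3.66 and 10.92 in A/J-12SM. The highest differences were those of Cps1, an enzyme of the urea cycle (3.20), Fgg, a fibrinogen chain (2.84), Tat, tyrosine aminotransferase (2.73), Ahsg, fetuin-A (2.62), Apoh (2.52) and Cyp2e1, a cytochrome P450 (2.36). Apoh stands in this list and in that of other apolipoproteins. The difference of Apob was above that of 20 of the 21 markers, that of Apoa1 above 16 and that of Apoa2 above 9, whereas those of Apoc1 and Mttp were above 6 and 2. In A/J the median level of the markers was 5.05, beside an array median of 4.400. The size of a difference is uncertain for markers near the array median, so this order is uncertain too. The 4 markers within the limit, named after their values were seen, were Hpx (hemopexin, 8.42 and 7.76), Hal (-0.23), Kng1 (0.33) and Tdo2 (0.66).

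Enterocyte markers, for the other cell type that makes Apob, were at or below the medians of both arrays for 10 of 12 genes. The exceptions were Anpep, an aminopeptidase that other cells also make (10.19 and 9.72), and Cdx1 (4.11 and 4.92), the only one past the limit, with none past it under loess scaling. Of the 12, 9 had a positive difference, with a median of 0.14. The 1 past the limit is 8.33% of the list, beside 7.14% of all genes. The list's summed level of 10.34 in A/J and 9.96 in A/J-12SM follows Anpep, which makes up most of it. Macrophages are a source of Apoe and Apoc1, and 13 of 15 of their markers had a negative difference, with a median of -0.40 for the list. Of these 2 were past the limit, Itgax (8.996 and 7.62) and Trem2, a lipid receptor of macrophages (9.02 and 8.16). They are 13.3% of the list, beside 4.28% of all genes that were lower. The summed level of macrophage markers was 13.38 and 12.98. The part of macrophage RNA in the values of Apoe (-0.15) and Apoc1 (0.99) was not tested.

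Among adipocyte markers, 2 of 11 were higher, Slc2a4, the insulin-responsive glucose transporter (6.63 and 7.65), and Adipoq, adiponectin (10.32 and 11.26). The list's summed level was 14.76 and 14.95. Beside this list and the next ones stand the 2.86% higher and 4.28% lower of all genes. Of 12 stromal and mesothelial markers, Upk1b alone was past the limit (7.11 and 8.28), at summed levels of 13.17 and 13.10. Of 12 germ cell and epididymis markers, 6 were lower and none higher, led by Mael (-4.99), Smcp (-4.17), Tnp2 (-3.65) and Tnp1 (-3.33). All of the lower ones are genes of male germ cells. The epididymis markers, named after their values were seen, were within the limit. They were Defb42 (0.40), Lcn5 (0.19), Aqp9 (0.14), Rnase10 (0.08) and Lcn8 (0.04), with Defb42, Rnase10 and Lcn8 below the medians. The summed level of the germ cell and epididymis list was 9.67 with A/J and 7.74 with A/J-12SM. The part of any of these lists in the results was not tested.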

How the data were processed

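Pooled epididymal fat RNA of each strain was hybridized to an Affymetrix mouse whole-transcript array. The deposited values are log2 levels, summarized by the authors for every probe set in Expression Console 1.3.0 (RMA-sketch). This method equalizes the distributions of the arrays, so a shift of most genes would be removed. Genome build and probe annotation behind the values are not given in the sources used here. Whether SM/J variants lie under probes of chromosome 12 genes was not tested. No detection call was used, and the number of arrays limits the precision.

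Of 41345 probe sets, 23521 named 1 gene, 1820 several and 16004 none in the platform table; the last 2 kinds were left out. Symbols were updated by gene identifier, and positions came from RefSeq on GRCm38.p6. A gene with several probe sets (1082 genes) took the one with the highest mean level. Both sample columns were used (0 left out).

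Genes were compared by the difference, A/J-12SM minus A/J, with no test. The genes and lists were chosen with earlier results of these data known. Named were all 10 genes, their cluster and pathway partners, and of each list at most 6 genes past 0.75 that reached 6 on an array, or otherwise the 2 with the highest mean level; others are marked. Alternatives were 3 scalings (median centring, loess with span 0.3, quantile), averaging a gene's probe sets, a threshold of 1.0 or 0.5, and a minimum level of 5 or 6. A further alternative was the paper's rounded ratio limits of 0.60 and 1.68, which were added here after the data were seen. The scripts were tested on simulated data. Python 3.11.15, pandas 2.3.3, NumPy 2.4.6, statsmodels 0.14.6 and matplotlib 3.10.9 were used.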

Additional observations from a re-analysis of the deposited data

How the results depend on the processing

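No paired analysis was possible because each strain has 1 array. Under the 3 scalings each of the 10 genes kept its direction, and the median difference of the set stayed between 0.49 and 0.57. Apob exceeded the same number of partners (8 of 9) by more than 0.75. Median centring moves all genes alike, so it could not change the excess of Apob over a partner. The mean over probe sets could not change any of these values, because each of the 10 genes has 1 probe set. The largest shift of a single gene was that of Apom, by 0.09. Centring each array on its median put 1 gene, Apobec1, below the limit (-0.78), and so did the ratio limits (1 lower). At a threshold of 0.5, 8 of the 10 genes were past it, 6 higher and 2 lower (Apod and Apobec1); at 1.0, 3 were, since Apoc1 dropped out. Among the lists, the single calls of mRNA editing (A1cf) and enterocyte markers (Cdx1) were lost under loess scaling (0 each), at 1.0 and with a level of at least 5 or 6. Receptors past the limit were 2 under each scaling and 0 at 1.0 or with a level of at least 6. Neighbours of Apob past the limit fell from 2 to 1 lower at 1.0 and to 0 at a level of at least 6. The other lists held 45 genes past the limit, 35 higher and 10 lower; a level of at least 6 left 27 (21 and 6), and at 0.5 the lower ones were 18. Over all genes, 1583 were past 0.75 (634 higher, 949 lower), 773 at 1.0 (254, 519), 3756 at 0.5 (1853, 1903), 861 with a level of at least 5 (321, 540) and 527 with at least 6 (189, 338). These minimum levels and thresholds test fewer genes or draw the line elsewhere by construction. Signal over background limits Apom most, and then Apoa4, Mttp and the Apob level on the A/J array.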
